A study of Mus musculus with 8 samples.

Results

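The genes described here encode the Hes, Hey and Bhlhe repressors of the mouse, namely Hes1, Hes6, Hey1, Hey2, Heyl, Bhlhe40 and Bhlhe41. They were taken by name from the array design, which carried all 7 genes on 8 of its 55681 probes. NIH3T3 cells are a single immortal mouse fibroblast line, grown in 10% newborn bovine serum, and all groups were first starved at 0.5% serum for 24 h. Cordycepin, an adenosine analogue without the 3′ hydroxyl that interferes with polyadenylation, was given in DMSO at 20 µM for 90 min with serum present for the last 30 min (3 arrays). The serum group received the DMSO vehicle for 90 min and the same 30 min of serum (3 arrays), and the starved cells received no serum (2 arrays). The general protocol gives controls 0.1% DMSO, but the source label of the starved cells names no vehicle, so whether that comparison differs in vehicle as well is not settled. Times follow the sample labels, while the design text can also be read as 90 min of cordycepin before the 30 min of serum. No array held cells given cordycepin without serum, so each effect of cordycepin was measured on top of serum. Independent triplicates are named in the series' design text, but the starved cells have 2 arrays and nothing says that these came from separate cultures, so p-values measure the spread between these samples.

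Hes, Hey and Bhlhe proteins are basic helix-loop-helix (bHLH) factors that bind E boxes, N boxes and related sites in DNA and mostly repress the genes there. Hes1, Hey1, Hey2 and Heyl are classic targets of Notch, a receptor whose released intracellular domain joins the DNA-binding protein Rbpj and a Mastermind coactivator. Hes1 represses its own promoter, and since its mRNA and protein are short-lived its level can oscillate; in cultured fibroblasts serum is known to start such oscillations. Hes6 is the member that antagonises Hes1 and promotes differentiation. Bhlhe40 and Bhlhe41, also called Dec1 and Dec2, compete with the Clock and Bmal1 activators at E boxes and respond to hypoxia, growth factors and other stimuli.

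Each member was read by single spots of 60-base probes, whose positions follow build mm9. The Hes1 probe lies on chromosome 16 (30067820 to 30067879, plus strand) and starts at base 1388 of its transcript in the array design. The Bhlhe40 probe lies on chromosome 6 (108616309 to 108616368, plus strand) from transcript base 2502, and the Hes6 probe on chromosome 1 (93308264 to 93308323, minus strand) from base 1071. Bhlhe41 is read on chromosome 6, minus strand, by a 5′ probe and by a 3′ probe further along its transcript. Whether these positions are exonic, intronic or in a UTR was not annotated here for that build. The stretches below are those of the members whose cordycepin and serum arrays did not overlap, printed 5′ to 3′ as the array design lists them, 30 bases of each. Capitals mark AATAAA, the usual signal for cleavage and polyadenylation.

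Hes1, chr16:30067849-30067878, plus strand: ttgagaaaatatAATAAAagagtgaaggct
Bhlhe40, chr6:108616339-108616368, plus strand: ggttccatctcctttaaggacgttttattt
Hes6, chr1:93308264-93308293, minus strand: gagcattagggtcctgggcagggacacaca

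Of the 8 member probes, 1, that of Hes1, held AATAAA on the listed strand, as did 10.1% of the 55681 probes of the array. The match describes the letters of the probe and shows no site in use. The remaining members lie on chromosome 3 (Hey1, 8663432 to 8663491, minus strand), chromosome 10 (Hey2, 30552729 to 30552788, minus strand) and chromosome 4 (Heyl, 122926975 to 122927034, plus strand).

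Levels are given as the log2 of the processed signal minus the log2 of the 75th percentile of its own array, so a probe at 0 is as bright as that percentile, and a change common to most RNAs would not appear. A level belongs to its own probe and cannot be ranked against that of another gene. The 75th percentile lay between 302.2 and 692 units of processed signal, 51.1 to 57.1% of the probes of an array were detected (flagged by the scanner software as well above background), and arrays of a group correlated with r of at least 0.992. All 12 fibroblast markers were detected on all 8 arrays, against 3 of 4 endothelial, 3 of 4 haematopoietic, 1 of 3 neural, 0 of 5 epithelial and 0 of 3 skeletal muscle markers. As a check of the labels, 6 of 7 serum-induced genes were called higher with serum and 6 lower with cordycepin. They were chosen on these same arrays and are no independent evidence. Of the haematopoietic markers, Cd68, a lysosomal protein of macrophages, was 8.12-fold higher with cordycepin (limma adjusted p = 4.79e-05). The summed level of those 4 markers was 31.1 to 39.1 times the 75th percentile with cordycepin and 17.6 to 20.2 with serum alone, and Ptprc was detected on 3 of 8 arrays. Without Cd68 the other 3 summed to 23.7 to 29.5 with cordycepin and 16.7 to 18.9 with serum alone. The neural sum was 0.43 to 0.65 with cordycepin and 0.24 to 0.34 with serum. Of the neural markers, Tubb3 differed by 0.93 on the log2 scale with cordycepin (limma adjusted p = 0.0127). The part of these shifts in the results below was not tested.

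What cordycepin did to these repressors in serum-treated cells was compared first. A probe was tested when all arrays of 1 or more groups detected it, and called when its limma p, adjusted over all 30859 tested probes, was under 0.05 and its log2 fold change at least 1 in size. Of the 7 members, 5 were tested, and Hes1 was called lower while none was called higher. Over all tested probes 2.99% were called lower and 7.56% higher. The median change of the 5 members was 0.13 on the log2 scale, against 0.09 for all tested probes, and their changes spanned −1.43 to 0.31. The members thus did not move as a block, and the larger differences were those of Hes1 and Bhlhe40.

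Hes1, the repressor at the end of Notch signalling, stood at −3.13, −2.90 and −3.48 on the 3 arrays with cordycepin. With serum alone it stood at −1.37, −1.53 and −2.30, and every array with cordycepin lay below every array without it. Hes1 fell by 1.43 on the log2 scale with cordycepin (SE 0.30, 95% interval −2.12 to −0.74, adjusted p = 0.0109), to 37.0% of its level with serum. The fall ranked as number 446 from the bottom among the 30859 tested probes. It was called in each of the 8 fits that left out 1 array, with values between −1.72 and −1.25. Normexp background correction gave −0.71 (adjusted p = 0.0347), which was under the fold required, and centring on spike-in probes gave −1.49 with a larger SE of 0.53 (adjusted p = 0.0698). A lower level in RNA from many cells can mean fewer expressing cells or less RNA per cell, and these arrays cannot tell them apart.

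**Figure D1:**
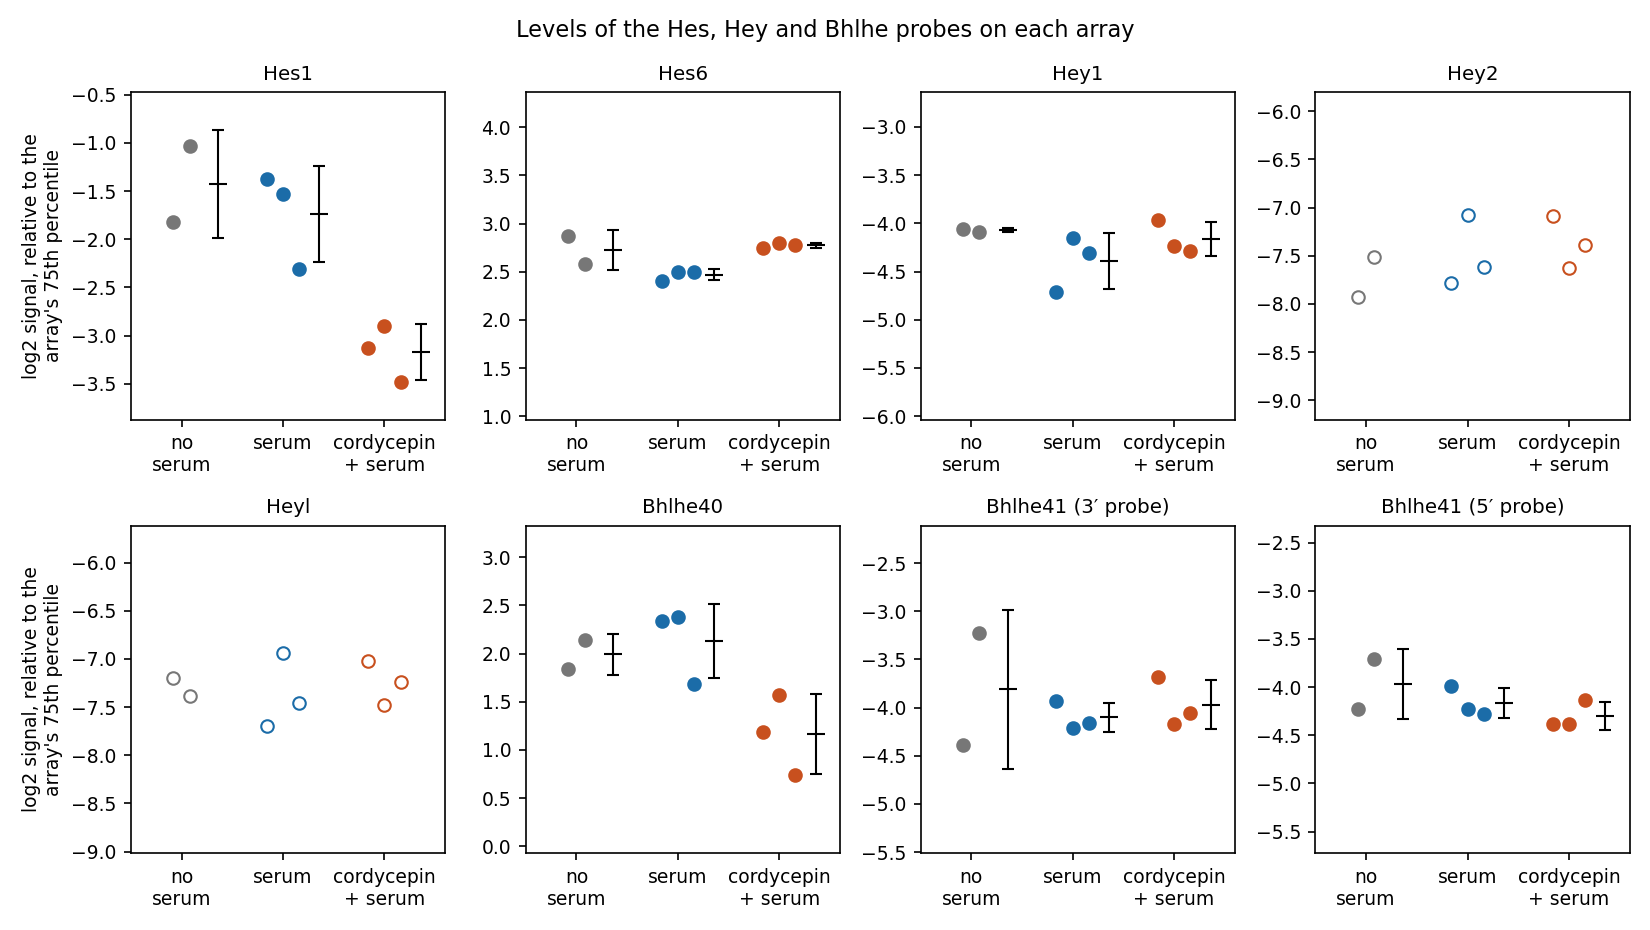
Level of each member probe on every array, as log2 signal relative to the 75th percentile of the array (vertical axis, of the same height in all panels), by group. Filled points were detected and open points were not, and black bars show mean ± SD where a probe was measured. The 3 orange Hes1 points lie below all other Hes1 points, from −3.48 to −2.90, and every Hey2 and Heyl point is open.

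Bhlhe40, a repressor of clock genes, showed the second largest difference. Its levels were 1.18, 1.57 and 0.74 with cordycepin and 2.33, 2.38 and 1.68 with serum alone. The ranges did not overlap, though the highest array with cordycepin (1.57) came close to the lowest with serum (1.68). The difference was −0.97 (SE 0.26, 95% interval −1.56 to −0.38, adjusted p = 0.0322), or 51.2% of the serum level. Its adjusted p was under 0.05 but it missed the minimum fold, so it was not called. The value was −0.96 with normexp (adjusted p = 0.00805), −1.02 with spike-in centring (adjusted p = 0.471) and −1.05 with slide row as a block (adjusted p = 0.032), of which the last was called, and without the filter on dim probes the adjusted p was 0.0946. Without array 2 of the cordycepin group it was −1.17 and without array 3 of the serum group −1.19, both called, whereas without array 3 of the cordycepin group it was −0.75 (adjusted p = 0.0908). With no minimum fold, Hes1 and Bhlhe40 passed, 2 of 5 members, where 7.71% of all tested probes were lower at that threshold.

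**Figure D2:**
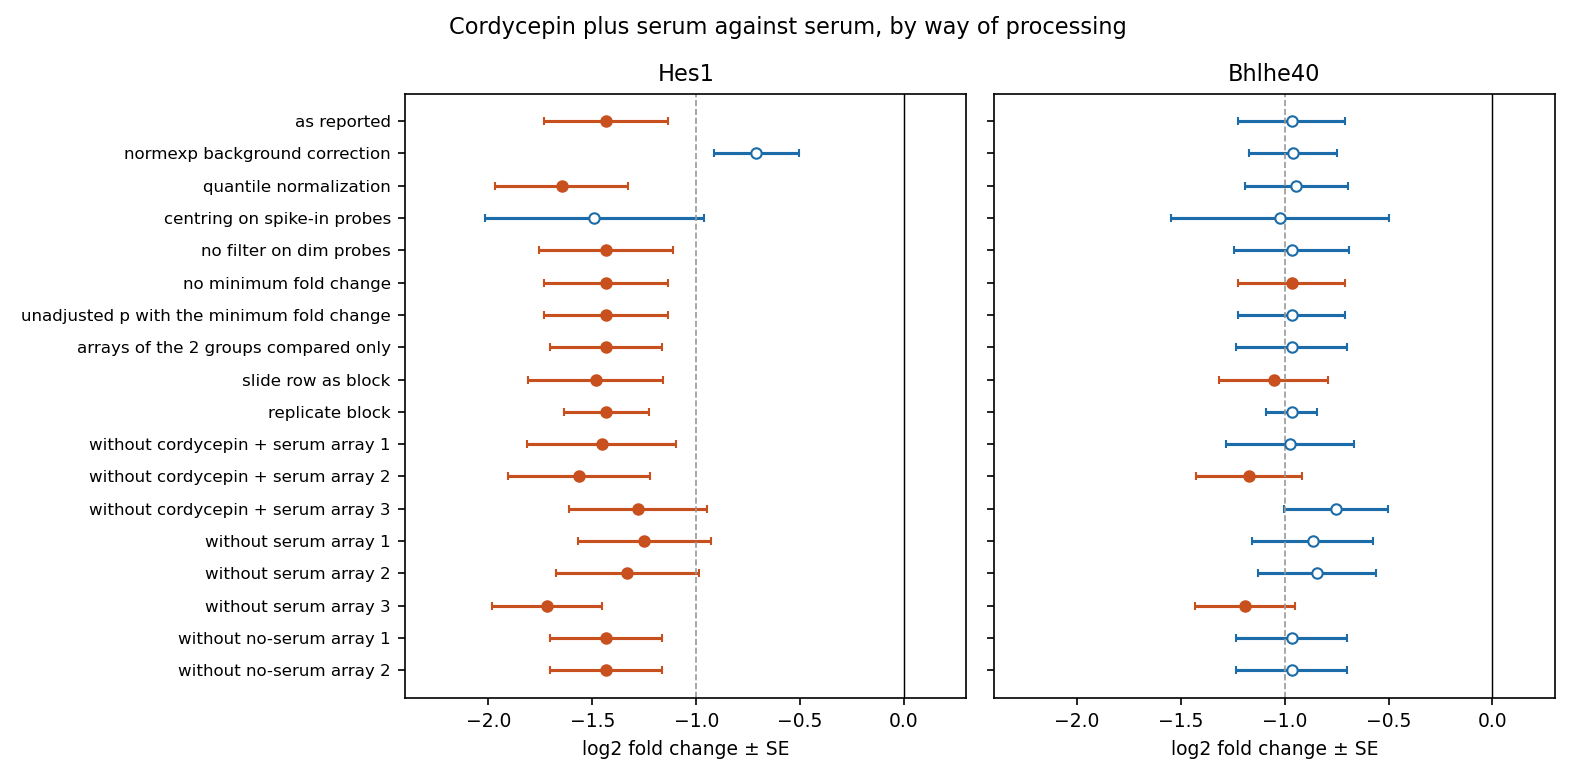
Change of Hes1 and Bhlhe40 with cordycepin (horizontal axis, log2 fold change ± SE against serum alone) under each way of processing and with each array left out. Filled orange points met the criteria for a call under that setting and open blue points did not, and the dashed line marks the minimum fold. All points lie below 0, from −1.72 to −0.71 for Hes1, while those of Bhlhe40 fall on both sides of the dashed line.

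None of the other measured members was called. Hes6, which opposes Hes1, stood at 2.75, 2.79 and 2.78 with cordycepin and at 2.40, 2.50 and 2.50 with serum alone. Each array with cordycepin was above each with serum, by a difference of 0.31 (SE 0.11, 95% interval 0.05 to 0.56), and the adjusted p of 0.102 missed the threshold. In all, 2 of 5 members had every cordycepin array below every serum array and 1 had them above, where 13.9% of all tested probes were so below and 25% above. Hey1, a Notch target that is best known from blood vessels and heart, stood at −3.96, −4.24 and −4.28 with cordycepin and at −4.71, −4.15 and −4.31 with serum. These overlapped, with a difference of 0.23 (95% interval −0.15 to 0.61, adjusted p = 0.386).

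Bhlhe41, the close relative of Bhlhe40, differed by 0.13 (95% interval −0.51 to 0.78, adjusted p = 0.787) on its 3′ probe. On the 5′ probe the difference was −0.13 (95% interval −0.51 to 0.24, adjusted p = 0.614). The levels of both probes lay between −4.39 and −3.23 on all 8 arrays, and the groups overlapped. The Bhlhe40 interval reached from −1.56 to −0.38 and those of both Bhlhe41 probes included part of that range, and the difference between the paralogues in their response was not tested. Hey2 and Heyl, further Notch targets of the vascular and muscle lineages, were detected on none of the 8 arrays. Their processed signals were 2.21 to 3.00 and 2.32 to 4.72 units, and a change in either was not measurable here.

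**Figure D3:**
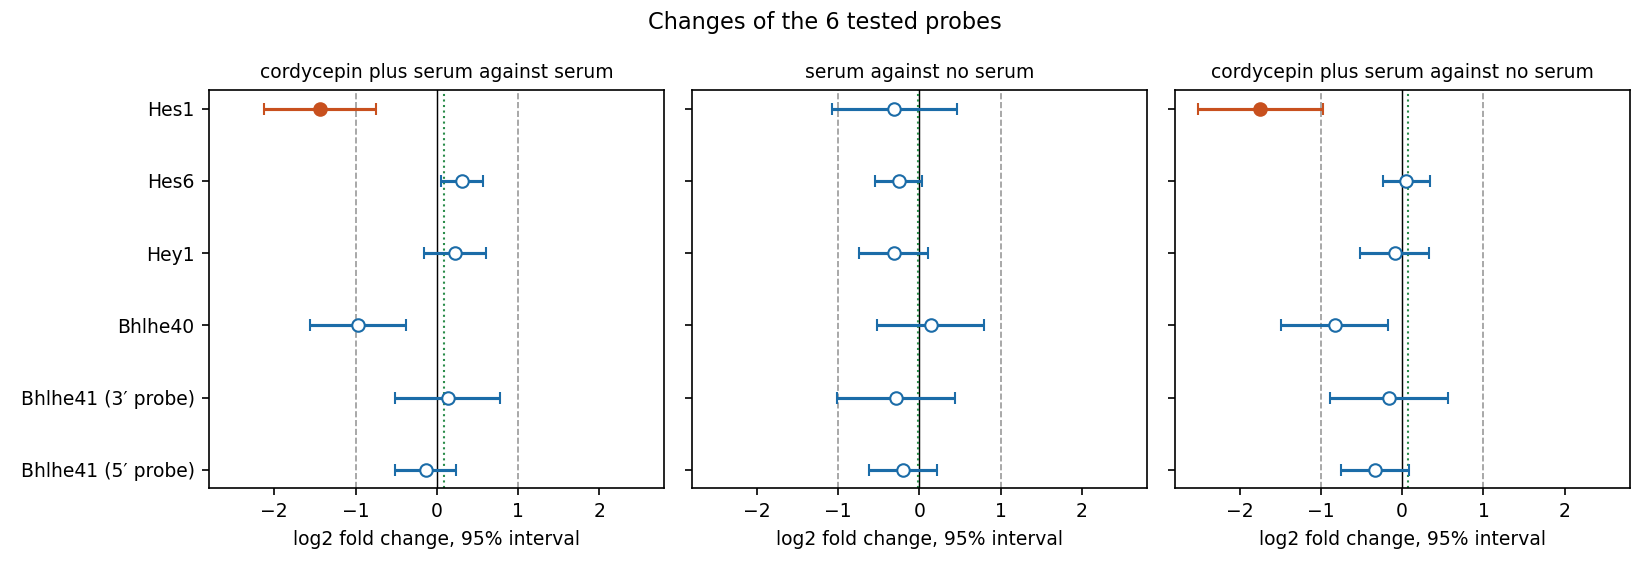
Log2 fold change with its 95% interval (horizontal axis) for the 6 tested member probes in the 3 comparisons. Filled orange points were called and open blue points were not, dashed lines mark the minimum fold and the dotted green line the median of all tested probes. Hes1 is the called gene in the comparisons with cordycepin (−1.43 and −1.74), and no member is called for serum against no serum.

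What 30 min of serum did to the repressors was asked next. None of the 5 members was called in either direction by limma, and 0 had an unadjusted p under 0.05, where 0.898% of all tested probes were called lower, 0.878% higher and 10.3% had such a p. The median change of the members was −0.29, against −0.01 for all tested probes. Hes1 stood at −1.82 and −1.03 in the starved cells, and its serum levels of −2.30 to −1.37 overlapped them (difference −0.31, SE 0.33, 95% interval −1.08 to 0.46, adjusted p = 1). Leaving out array 2 of the starved cells turned that difference to 0.085. For Bhlhe40 the starved levels were 1.84 and 2.14, inside the range with serum, and the difference was 0.14 (95% interval −0.52 to 0.80, adjusted p = 1).

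Hes6 at 2.87 and 2.58 and Hey1 at −4.06 and −4.09 in the starved cells were above all their serum arrays. These were 2 of 5 members with serum below and none above, where 13.1% of all tested probes had every serum array below both starved arrays and 9.96% above. The differences were −0.26 (SE 0.13, adjusted p = 0.601) for Hes6 and −0.32 (SE 0.18, adjusted p = 0.748) for Hey1. The Bhlhe41 probes differed by −0.29 (adjusted p = 1) on the 3′ probe and −0.20 (adjusted p = 0.993) on the 5′ probe. Only 2 starved arrays were at hand, and the intervals differed in width between the members. That of Hes1 allows a change of up to 1.08 downwards and that of the Bhlhe41 3′ probe 1.01. Those of Hes6 (−0.54 to 0.03) and Hey1 (−0.74 to 0.11) stayed under the minimum fold. Centring on spike-in probes moved the median of all probes to −0.36, so directions in this comparison are relative to the scaling.

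Cells given cordycepin and serum were then set against the starved cells. These use the same arrays as the comparisons above, so the values are not further evidence and are given side by side. Hes1 was called lower here as well, 1 of 5 members, where 3.08% of tested probes were called lower and 6.46% higher. It fell by 1.74 (SE 0.33, 95% interval −2.51 to −0.97, adjusted p = 0.00934), to 29.9% of the starved level. The order of its levels was thus no serum (−1.43 ± 0.56, SD, n = 2), serum (−1.74 ± 0.50, n = 3) and cordycepin plus serum (−3.17 ± 0.29, n = 3), of which the former pair overlapped. Without array 2 of the starved cells the change was −1.35 and was no longer called (adjusted p = 0.0788), and with normexp it was −0.90 (adjusted p = 0.0202) and under the fold required.

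Bhlhe40 differed from the starved cells by −0.83 (SE 0.29, 95% interval −1.49 to −0.17, adjusted p = 0.102), which did not pass. As for Hes1, all its cordycepin arrays were below both starved arrays, which made 2 of 5 members below and none above, against 16.5% and 27.8% of all tested probes. Its order of levels was serum (2.13 ± 0.39), no serum (1.99 ± 0.21) and cordycepin plus serum (1.16 ± 0.42), the first pair overlapping. The differences of Hes6 (0.05), Hey1 (−0.09) and Bhlhe41 (−0.16 and −0.33) had adjusted p between 0.288 and 0.834.

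Genes that control or work with these repressors were read from lists around the pathway. Of 11 Notch ligands and receptors, 7 were tested and none was called in any of the 3 comparisons. With few genes in a list, and 2.99% of all tested probes called lower and 7.56% higher with cordycepin, 0 calls do not set such a list apart from other genes. Their changes with cordycepin lay between −0.25 for Notch1 and 0.14 for the ligand-like Dlk1, with a median of −0.06. Dll1 and Jag2, which are activating ligands, were detected on no array. Of the 25 genes for processing and trafficking of Notch, which include the proteases that release its intracellular domain, 23 were tested and none was called in any comparison. Their median with cordycepin was 0.14, and the extremes were Lfng (−1.17, adjusted p = 0.0929), a glycosyltransferase that tunes the receptor's choice of ligand, and the γ-secretase subunit Aph1a (0.69, adjusted p = 0.0111). Lfng was detected on 6 of the 8 arrays. Its mean with cordycepin (−5.36) lay below the mean dimmest detected level of those arrays (−5.06), so the size of its change is uncertain.

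The nuclear side of the pathway also held no call among the 11 of 12 genes tested. Its median with cordycepin was −0.32, below that of all probes, with 8 of 11 values negative. Rbpj, the DNA-binding partner of Notch, differed by −0.08 (adjusted p = 0.605). The Mastermind coactivators differed by −0.48 (Maml1, adjusted p = 0.0405), −0.78 (Maml2, adjusted p = 0.00741) and −0.68 (Maml3, adjusted p = 0.0665), all under the minimum fold. None of the 11 corepressors that Hes proteins recruit, such as the Tle family, was called in any comparison, and their median with cordycepin was 0.02. The choice of Lfng, Aph1a and the Maml genes as examples followed a look at their values. Each value is that of the gene's brightest tested probe. Aph1a, Rbpj, Maml2 and Maml3 have a further tested probe, whose change is not given here.

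**Figure D4:**
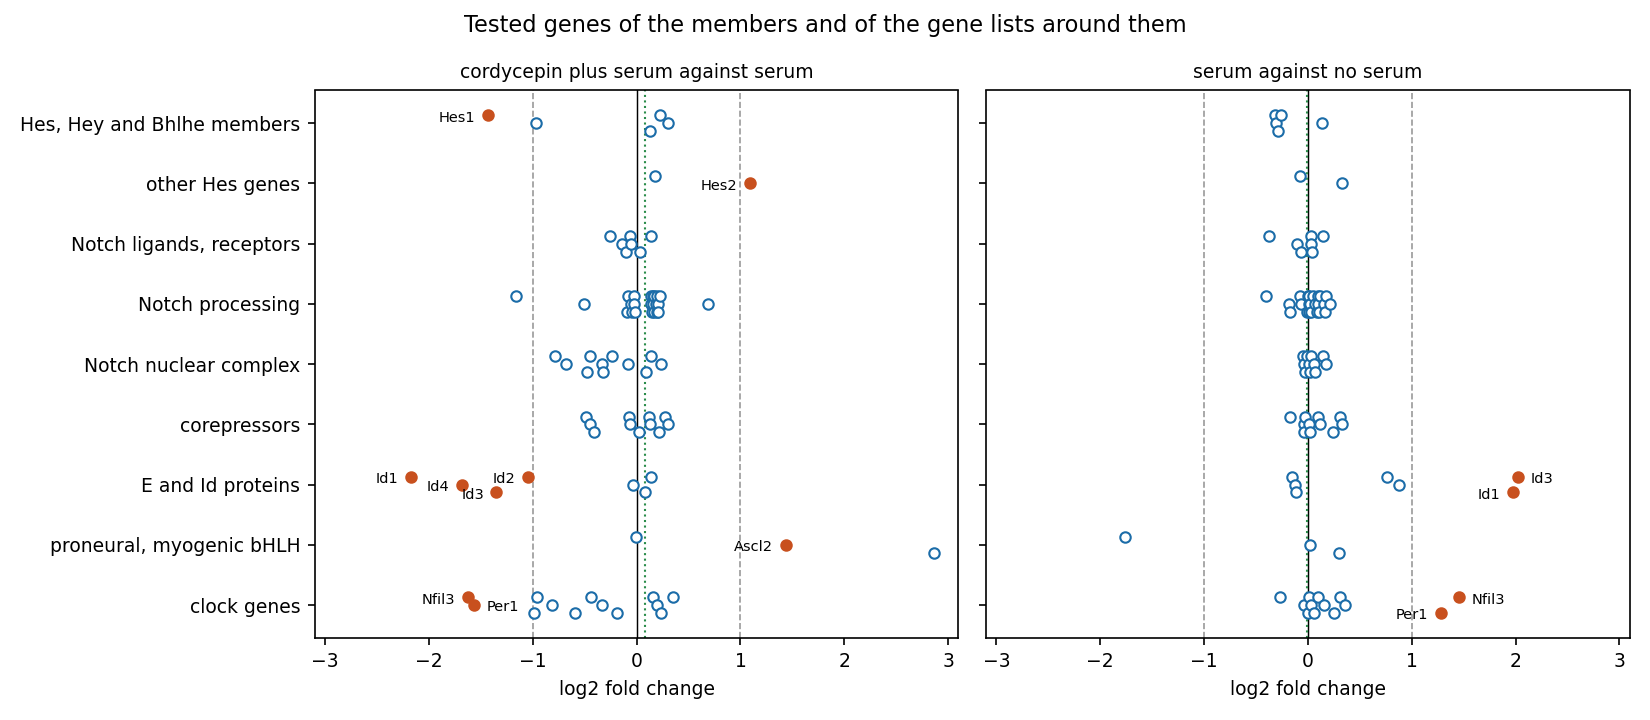
Log2 fold change of each tested gene (horizontal axis, 1 point per gene) among the members and the lists of related genes, for cordycepin plus serum against serum and for serum against no serum. Filled orange points were called and are named, open blue points were not called, dashed lines mark the minimum fold and the dotted green line the median of all tested probes. The Id genes lie at −2.17 to −1.04 on the left and the Notch lists stay without a call, and the open point right of 2 is Neurog2, which was not detected with serum alone.

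Among 7 partners with a helix-loop-helix domain, 4 were called lower with cordycepin and 0 higher, against 2.99% and 7.56% of all tested probes. The Id proteins lack a DNA-binding region and capture E proteins in inactive dimers. The 4 called were all the Id genes of the list, while the E protein genes Tcf3, Tcf4 and Tcf12 were not called, with values of −0.03 to 0.14. Id1 stood at 2.23, 1.94 and 1.60 with cordycepin, at 4.21, 4.41 and 3.69 with serum and at 1.95 and 2.30 without serum. It fell by 2.17 with cordycepin (SE 0.23, adjusted p = 0.000321) and rose by 1.97 with serum (adjusted p = 0.00796). Id4 fell by 1.68 (adjusted p = 0.000625) and Id3 by 1.35 (adjusted p = 0.000829), and Id3 also rose with serum, by 2.02 (adjusted p = 0.00167). Id2, which was picked with its values in view, fell by 1.04 (adjusted p = 0.00804). Centring on spike-in probes kept all 4 values negative but left Id2 (−1.10, adjusted p = 0.363) and Id3 (−1.41, adjusted p = 0.103) uncalled, and Id2 was also uncalled without array 1 of the cordycepin group (−0.82) or array 1 of the serum group (−0.96). The rise of Id1 with serum was not called without array 1 of the starved cells (1.80, adjusted p = 0.0717), and neither rise was called after spike-in centring (adjusted p = 0.363 and 0.313).

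Among 14 clock genes, those with E boxes or their regulators, 13 were tested and 2 were called lower with cordycepin and higher with serum. Over all tested probes 2.99% were called lower with cordycepin and 0.878% higher with serum. Per1, a clock repressor, fell by 1.57 with cordycepin (adjusted p = 0.00013) and rose by 1.28 with serum (adjusted p = 0.00552). Nfil3, a repressor of clock output genes, fell by 1.62 (adjusted p = 0.000629) and rose by 1.45 (adjusted p = 0.0146). Their falls were called under all 17 alternatives, whereas the rise of Nfil3 was not called without array 1 (adjusted p = 0.0589) or array 2 (adjusted p = 0.118) of the starved cells, that of Per1 without array 2 (adjusted p = 0.052), and neither with spike-in centring. The median of the clock genes was −0.44 with cordycepin and 0.10 with serum, and with cordycepin 9 values were negative and 4 positive. Cry2 (−0.96, limma adjusted p = 0.000736), Nr1d1 (−0.99, adjusted p = 0.00365) and Clock (−0.82, adjusted p = 0.00114) fell with cordycepin under the minimum fold. None of these was called with serum, and they were picked with their values in view. Hes1, Id2 and Id4 were thus called lower with cordycepin and not called with serum. With serum Id2 differed by 0.88 (limma adjusted p = 0.121) and Id4 by 0.76 (adjusted p = 0.189). Id1, Id3, Per1 and Nfil3 were called in both comparisons, which share the serum arrays. The difference between these patterns was not tested.

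Few of the other Hes genes and of the bHLH activators that Hes proteins are known to repress were measurable. Of the other 5 Hes genes, 2 were tested. Hes2 was called higher with cordycepin (1.09, SE 0.30, adjusted p = 0.0385), from levels of −5.87, −4.69 and −5.37 with serum, where 1 of 3 arrays detected it, to −3.96, −4.20 and −4.50. It was not called after normexp (0.42), quantile normalisation (0.79) or spike-in centring (1.03), without the filter on dim probes (adjusted p = 0.108), nor without any single cordycepin array (0.96 to 1.23) or without array 1 (0.81) or 3 (1.06) of the serum group. Against the starved cells, where no array detected it, Hes2 was at least 2.41-fold higher (adjusted p = 0.0247). Hes2 entered the tests only through the cordycepin arrays, where it is high, and the latter call was lost with normexp (0.65), with spike-in centring (adjusted p = 0.639), without the filter on dim probes (adjusted p = 0.0763), without array 1 (adjusted p = 0.0814) or 2 (adjusted p = 0.0668) of the cordycepin group and without array 1 of the starved cells (1.14, adjusted p = 0.176). Of 10 proneural and myogenic activators 3 were tested. Ascl2, an activator known from trophoblast and intestinal stem cells, stood at −2.17, −2.82 and −2.87 with cordycepin and at −4.06, −3.87 and −4.24 with serum. It rose by 1.43 (SE 0.20, adjusted p = 0.00151), and against the starved cells by 1.73 (adjusted p = 0.00146). With normexp the values were 0.72 and 0.97, neither of them called. After spike-in centring they were 1.38 (adjusted p = 0.118) and 1.33 (adjusted p = 0.292), again uncalled. Neurog2, another proneural activator, was not detected on the serum arrays. Against the dimmest detectable level there, cordycepin gave at least 1.67-fold more, and the gene was not called (adjusted p = 0.0658). Neurog2 too entered the tests only through the cordycepin arrays, where it is high, and 1 of the 2 starved arrays detected it.

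The surroundings of the members were read from other probes within 50 kb in build mm9. No tested probe lay near Hes1 and no probe of any kind near Hey1. Per2, a clock repressor, was read 4782 bases upstream of the Hes6 probe on the same strand and differed by −0.59 with cordycepin (adjusted p = 0.0162), under the minimum fold, while Hes6 differed by 0.31. Near Bhlhe40, an RNA on the other strand (4833447P13Rik, 8710 bases away) differed by 0.21 (adjusted p = 0.387). A transcript without a gene name, TC1674879, 33394 bases downstream of the Hey2 probe on the same strand, was the neighbour that was called. Its levels were −4.74 and −4.63 in the starved cells and the other 6 arrays did not detect it. It was at least 1.51-fold lower with serum (adjusted p = 0.0119) and at least 1.30-fold lower with cordycepin and serum (adjusted p = 0.00132) than in the starved cells. It entered the tests only through the starved cells, where it is high, and with all 55681 probes fitted the adjusted p was 0.0616 for serum, no longer a call, and 0.00696 for cordycepin and serum.

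Last, the genes whose profile over the 8 arrays was nearest to that of Hes1 were sought among 13310 other genes with a RefSeq mRNA. The measure was the root mean square difference of log2 values after each profile was centred on its own mean, which had a median of 0.87 over those genes. Angptl4, a secreted inhibitor of lipoprotein lipase, was nearest (0.15), and its own changes were −1.24 with cordycepin and −0.28 with serum. It was followed by the tRNA methyltransferase gene Trmt61a (0.26; −1.49 and −0.29) and by Eva1a (0.27; −1.42 and 0.16). All 3 were lower with cordycepin at adjusted p of 0.013, 0.000416 and 0.00277, and in none did serum give a value that passed. The ranking used the same arrays as the tests, so these values describe the likeness and do not test it.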

How the data were processed

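Total RNA of 8 samples, labelled with Cy3, was read on Agilent 60-base mouse arrays of 1 colour, 1 array per sample. The deposited files give the intensity of each spot (linear units). The authors used Feature Extraction 10.7.3.1, according to the headers, which subtracts background, removes a spatial trend and flags outliers. The 8 arrays share 1 slide and 1 scan. Here the log2 of the processed signal, without control and outlier spots, was averaged per probe and lowered by the array's 75th percentile over probes. Groups came from the sample labels. Differences were fitted with limma 3.58.1 (R 4.3.3), with 1 mean per group over all 8 arrays, two-sided p and Benjamini-Hochberg adjustment over 30859 probes, and the scripts were tested on simulated data. The number of arrays limits the precision. For lists, the brightest tested probe of a gene was used, and up to 3 called genes per list and comparison were named by size. A fold against an undetected group is a bound, taken against the dimmest detected probe of each array or the probe's own signal where higher. The members and lists were chosen with earlier results of these data known. Alternatives were normexp (offset 50), quantile and spike-in scaling, no dim filter, other thresholds, 2-group fits, slide row or replicate blocks, and leaving out each array.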

Additional observations from a re-analysis of the deposited data

How the results depend on the processing

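The count of members called lower with cordycepin against serum was 1 and became 0 with normexp and with spike-in centring, and 2 without a minimum fold and with slide row as a block. It was 1 to 2 when single arrays were left out, with Bhlhe40 added without array 2 of the cordycepin group or array 3 of the serum group. The normexp offset of 50 is of the size of the Hes1 signal with cordycepin (34.6 to 66.5 units), and spike-in centring raised the SE of Hes1 from 0.30 to 0.53. Against the starved cells the count of 1 became 0 with normexp, and was 0 to 1 when single arrays were left out, the 0 being without array 2 of the starved cells. For serum against no serum it was 0 throughout, and no member was called higher in any comparison or setting.

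Over the lists of related genes, 6 were called lower with cordycepin against serum. This count was 4 with spike-in centring, 13 without a minimum fold and 5 to 9 with single arrays left out. The 2 called higher became 0 with normexp, 1 with quantile normalisation, 1 with spike-in centring and 1 without the dim filter, and 1 to 3 with single arrays left out, the value of 1 arising without each cordycepin array and without arrays 1 and 3 of the serum group. With serum against no serum, 4 were called higher, 0 after spike-in centring and 2 to 4 with single arrays left out (2 without either starved array), and the 0 called lower became 0 to 1. Against the starved cells, the 0 called lower with cordycepin became 1 with spike-in centring, 5 without a minimum fold, 1 with unadjusted p, 1 with a replicate block and 0 to 2 with single arrays left out. The 2 called higher became 0 with normexp, 0 with spike-in centring, 1 without the dim filter and 1 to 3 with single arrays left out.

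Some values that were never called changed sign, and the cause was not tested. Bhlhe41 with cordycepin against serum was −0.15 with quantile normalisation, −0.0013 as the mean of its probes, and −0.0095 to 0.23 with single arrays left out. Hey1 there was −0.065 with quantile normalisation. For serum against no serum, normexp gave 0.054 for Bhlhe41 and 0.041 for Hey1, and spike-in centring gave −0.21 for Bhlhe40. With single arrays left out the ranges were −0.71 to 0.085 for Hes1, −0.013 to 0.36 for Bhlhe40 and −0.87 to 0.29 for Bhlhe41. For cordycepin against no serum, normexp gave 0.21 for Bhlhe41 and 0.25 for Hey1, spike-in centring gave −0.36 for Hes6, and the ranges were −0.10 to 0.20 for Hes6 and −0.74 to 0.42 for Bhlhe41.

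Calls over all tested probes with cordycepin against serum were 2333 higher and 922 lower, and 1933 and 1305 with quantile, 1495 and 394 with spike-in and 891 and 408 with normexp scaling. With serum they were 271 and 277, and 48 and 130 after spike-in centring, which moved the median of all probes to −0.36, and 174 and 58 with normexp. Against the starved cells they were 1994 and 949, and 1727 and 1245 with quantile, 775 and 572 with spike-in and 1036 and 349 with normexp scaling. Samples with the same replicate number did not consistently deviate together (r of −0.17 to 0.23 over 7 pairs). Deviations within groups of so few arrays depend on each other, so these values cannot settle whether the numbers pair the samples. With the number as a replicate block, Hes1 with cordycepin against serum was −1.43 (limma adjusted p = 0.00466), and no count changed by over 1.5 times other than the one given above. The 2 starved arrays and the low signals of Hey1 and Bhlhe41 (14.5 to 49.8 units) limit what could be seen of serum.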
